A study of Arabidopsis thaliana with 12 samples.

Results

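The UDP-glycosyltransferases (UGTs) of Arabidopsis were followed in wild-type seedlings and in 3 mutants that make less nitric oxide (NO). The genes were taken by symbol: a probe set had to be listed with a single gene, and that gene had to be called UGT followed by a number. This gave 47 UGT genes among the 13356 genes that a probe set of the Affymetrix ATH1 array measured alone, each with 1 probe set, spread over 11 family numbers between UGT71 and UGT88. No measured value entered this choice. Of the 47 genes, 28 reached a mean log2 intensity of 6, the floor the study places between noise and signal, in at least 1 genotype and were tested. The other 19 stayed under that floor in all 4 genotypes.

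UGTs are enzymes that move a sugar, mostly glucose, from a UDP-sugar onto a small acceptor such as a hormone, a flavonoid, a lignin precursor, a sterol or a foreign compound. The added sugar makes the acceptor more soluble and usually less active, and it often marks it for transport into the vacuole. The number in a UGT name groups enzymes by protein sequence, the letter after it marks a closer subgroup, and many members of a subgroup sit side by side in the genome as tandem copies.

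The 4 genotypes were Col-0, the wild-type accession, and nia1nia2, noa1-2 and nia1nia2noa1-2. The nia1nia2 line is mutated in both nitrate reductase genes, noa1-2 has a defect in NOA1, a GTPase of the plastid, and the triple mutant joins all of these lesions. Total RNA came from whole seedlings aged 15 days, past the transition to flowering per the labels, grown on MS medium with 1% sucrose under 16 h of light and 8 h of darkness and collected 5 h after dawn. There were 3 biological replicates of each genotype and 12 arrays, and the labels number those of nia1nia2 from 2 to 4 and all others from 1 to 3. Each mutant is a single line, and NIA1, NIA2 and NOA1 were not paired with a probe set in the annotation used, so the mutated genes were not checked here.

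Median intensity differed little between arrays, from 76.1 to 86.8. The nia1nia2 arrays were less alike than the others: the median SD over all tested genes was 0.26 log2 units in nia1nia2 against 0.12 in Col-0, 0.11 in noa1-2 and 0.12 in nia1nia2noa1-2, and over the tested UGT genes it was 0.38, 0.16, 0.16 and 0.19. One spread was estimated for each gene over all 12 arrays, which is too narrow for nia1nia2 and too wide for the others, so UGT calls in nia1nia2 are given with 2 further fits, limma on only the 6 arrays compared and limma with weights for each genotype. Of the tissue markers looked up, 1 of 5 shoot markers and 3 of 14 root markers were measured alone, and none of the flower or seed markers was. The shoot marker RCA, which encodes Rubisco activase, had intensities of 14067 to 15936 in Col-0 and of 10016 to 11994 in nia1nia2, a difference of -0.40 log2 units (adjusted p = 0.00767), while 12944 to 13401 was read in nia1nia2noa1-2 and 14362 to 14664 in noa1-2. The 3 root markers EXPA18, EXPA7 and PYK10 summed to 6556 to 6795 in Col-0, 6149 to 8528 in nia1nia2, 6540 to 7439 in noa1-2 and 6536 to 8003 in nia1nia2noa1-2, and neither of the 2 that were tested was called. Whether tissue make-up has a part in the UGT results was not tested, and in whole seedlings fewer cells of a type and less RNA per cell cannot be told apart.

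Against Col-0, 12 of the 28 tested UGT genes rose in nia1nia2 (42.9%), where 16.4% of all 7034 tested genes did, and 5 fell, where 26.6% of all genes did (limma, adjusted p under 0.05). With array medians made equal, those background shares became 21.7% and 20.5%, and the UGT counts 12 and 3. In nia1nia2noa1-2, 11 UGT genes rose (39.3%) against a background of 10.6%, and 3 fell against one of 11.3%. In noa1-2, 0 UGT genes rose against a background of 5%, and 1 fell against one of 4.08%. The median log2 change of the 28 genes was 0.25 in nia1nia2, -0.20 in noa1-2 and 0.28 in nia1nia2noa1-2, while over all tested genes it was -0.10, -0.03 and -0.03. The SD of the log2 changes over the UGT genes was 1.36 in nia1nia2, 0.29 in noa1-2 and 1.05 in nia1nia2noa1-2, beside 0.66, 0.35 and 0.51 over all genes. The 3 mutants were set against the same Col-0 arrays. Because 4 of the risers (UGT73B4, UGT73C1, UGT73C7 and UGT76E12) were under the floor in Col-0 and were tested only through the mutants, the count was also made over the 24 genes at or above it in Col-0, of which 8 rose in nia1nia2 and 8 in nia1nia2noa1-2. Among all 6621 genes at or above the floor in Col-0, 14.4% and 9.24% rose. The SD over these 24 UGT genes was smaller, 0.87 in nia1nia2, 0.30 in noa1-2 and 0.70 in nia1nia2noa1-2, beside 0.59, 0.34 and 0.46 over the 6621 genes.

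**Figure D1:**
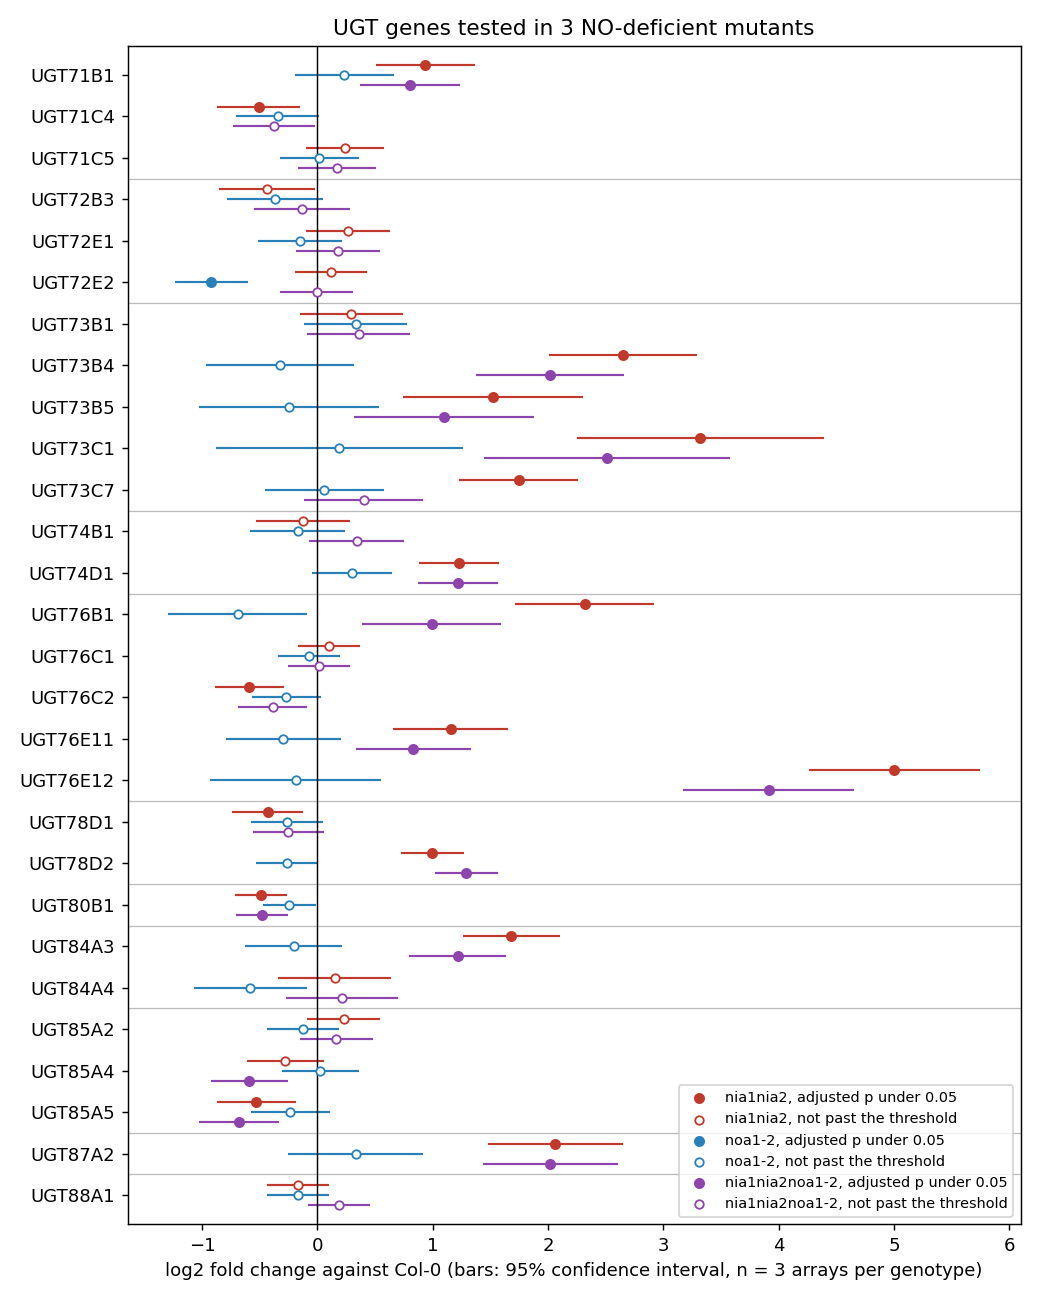
Log2 change against Col-0 of the 28 tested UGT genes (rows) in nia1nia2, noa1-2 and nia1nia2noa1-2, with 95% confidence intervals from limma on 12 arrays, 3 per genotype; filled symbols have an adjusted p under 0.05. The rises reach 5.00 log2 units (UGT76E12) in nia1nia2 and 3.91 in nia1nia2noa1-2, while in noa1-2 only UGT72E2 is filled, at -0.92.

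Enzymes known from detoxification and redox stress are described first. Of 14 UGT genes listed for this role, 7 were measured alone and 6 tested, and 5 of the 6 rose in nia1nia2 and 5 in nia1nia2noa1-2, with none called in noa1-2, beside the shares of all genes given above. Their median log2 changes were 2.09, 1.56 and -0.22. Since 3 of the 6, UGT76E12, UGT73C1 and UGT73B4, lay under the floor in Col-0 and were tested only through mutants, these counts and medians describe the genes and are no measure of the group.

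UGT76E12 had the largest log2 change of the 28 genes. Its log2 intensities were 4.5, 4.18 and 4.21 in Col-0, 9.5, 8.45 and 9.95 in nia1nia2, 4.11, 4.23 and 3.98 in noa1-2, and 8.1, 8.93 and 7.6 in nia1nia2noa1-2. All 6 arrays with mutated nitrate reductases lay more than 3 log2 units above all 6 others. The rise was 5.00 ± 0.34 (SE) in nia1nia2 (adjusted p = 6.42e-07), a 32.1-fold difference in measured signal, and 3.91 in nia1nia2noa1-2 (adjusted p = 9.09e-06), a 15.1-fold one. Col-0 and noa1-2 were under the floor, so these folds are not exact. Its close neighbour UGT76E11, above the floor in Col-0 at 8.13, 7.85 and 7.65, read 9.01, 8.54 and 9.55 in nia1nia2, 7.85, 7.59 and 7.3 in noa1-2, and 8.76, 8.92 and 8.44 in nia1nia2noa1-2. Neither nia1nia2 mutant overlapped Col-0. UGT76E11 rose by 1.16 ± 0.23 in nia1nia2 (adjusted p = 0.00151) and by 0.83 in nia1nia2noa1-2 (adjusted p = 0.0216), and the latter call was lost without Col-0 replicate 2 or 3 or nia1nia2noa1-2 replicate 1 or 2 (adjusted p = 0.062 to 0.0939).

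UGT73C1, which can glucosylate cytokinins and breakdown products of the explosive TNT, was the next most raised. Its log2 intensities were 6.96, 5.83 and 5 in Col-0, 9.41, 8.15 and 10.19 in nia1nia2, 6.23, 6.05 and 6.08 in noa1-2, and 8.53, 8.95 and 7.84 in nia1nia2noa1-2. The Col-0 arrays were far apart, yet the highest of them lay under every array of both nia1nia2 mutants. The rise was 3.32 ± 0.50 in nia1nia2 (adjusted p = 0.000202) and 2.51 in nia1nia2noa1-2 (adjusted p = 0.00313). Its neighbour UGT73C2 was under the floor in every genotype.

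UGT73B4 and UGT73B5 are tandem copies linked to pathogen and redox responses. The UGT73B4 arrays read 5.75, 5.54 and 5.55 in Col-0, 7.91, 7.73 and 9.15 in nia1nia2, 5.42, 5.11 and 5.33 in noa1-2, and 7.81, 7.91 and 7.17 in nia1nia2noa1-2. UGT73B5 read 6.82, 6.3 and 5.99 in Col-0, 7.44, 7.36 and 8.87 in nia1nia2, 6.34, 5.89 and 6.14 in noa1-2, and 7.41, 8.02 and 6.98 in nia1nia2noa1-2. For both genes every array of the 2 nia1nia2 mutants was above every Col-0 array, though for UGT73B5 the lowest triple-mutant array cleared the highest Col-0 array only narrowly. UGT73B4 rose by 2.65 ± 0.30 in nia1nia2 (adjusted p = 2.52e-05) and by 2.02 in nia1nia2noa1-2 (adjusted p = 0.000484). UGT73B5 rose by 1.52 ± 0.36 in nia1nia2 (adjusted p = 0.00458). Its difference of 1.10 in nia1nia2noa1-2 passed narrowly (adjusted p = 0.0451) and no longer did when dim genes were kept (adjusted p = 0.0801) or without Col-0 replicate 2 or 3, nia1nia2noa1-2 replicate 1 or 2, or any 1 noa1-2 replicate (adjusted p = 0.0582 to 0.188). The third tested member of the subgroup, UGT73B1, did not pass in any mutant, with log2 differences of 0.29 (95% interval -0.15 to 0.74) in nia1nia2, 0.33 (-0.12 to 0.78) in noa1-2 and 0.36 (-0.09 to 0.80) in nia1nia2noa1-2.

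A probe set shared by UGT73B2 and UGT73B3, the copies that complete this subgroup, was outside the fit because its signal cannot be assigned to one of them. It read 9.54, 8.98 and 8.86 in Col-0, 11.19, 10.88 and 12.11 in nia1nia2, 8.82, 8.83 and 8.74 in noa1-2, and 11.46, 11.3 and 10.87 in nia1nia2noa1-2. As with UGT73B4, both nia1nia2 mutants were wholly above Col-0 and noa1-2 was not.

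**Figure D2:**
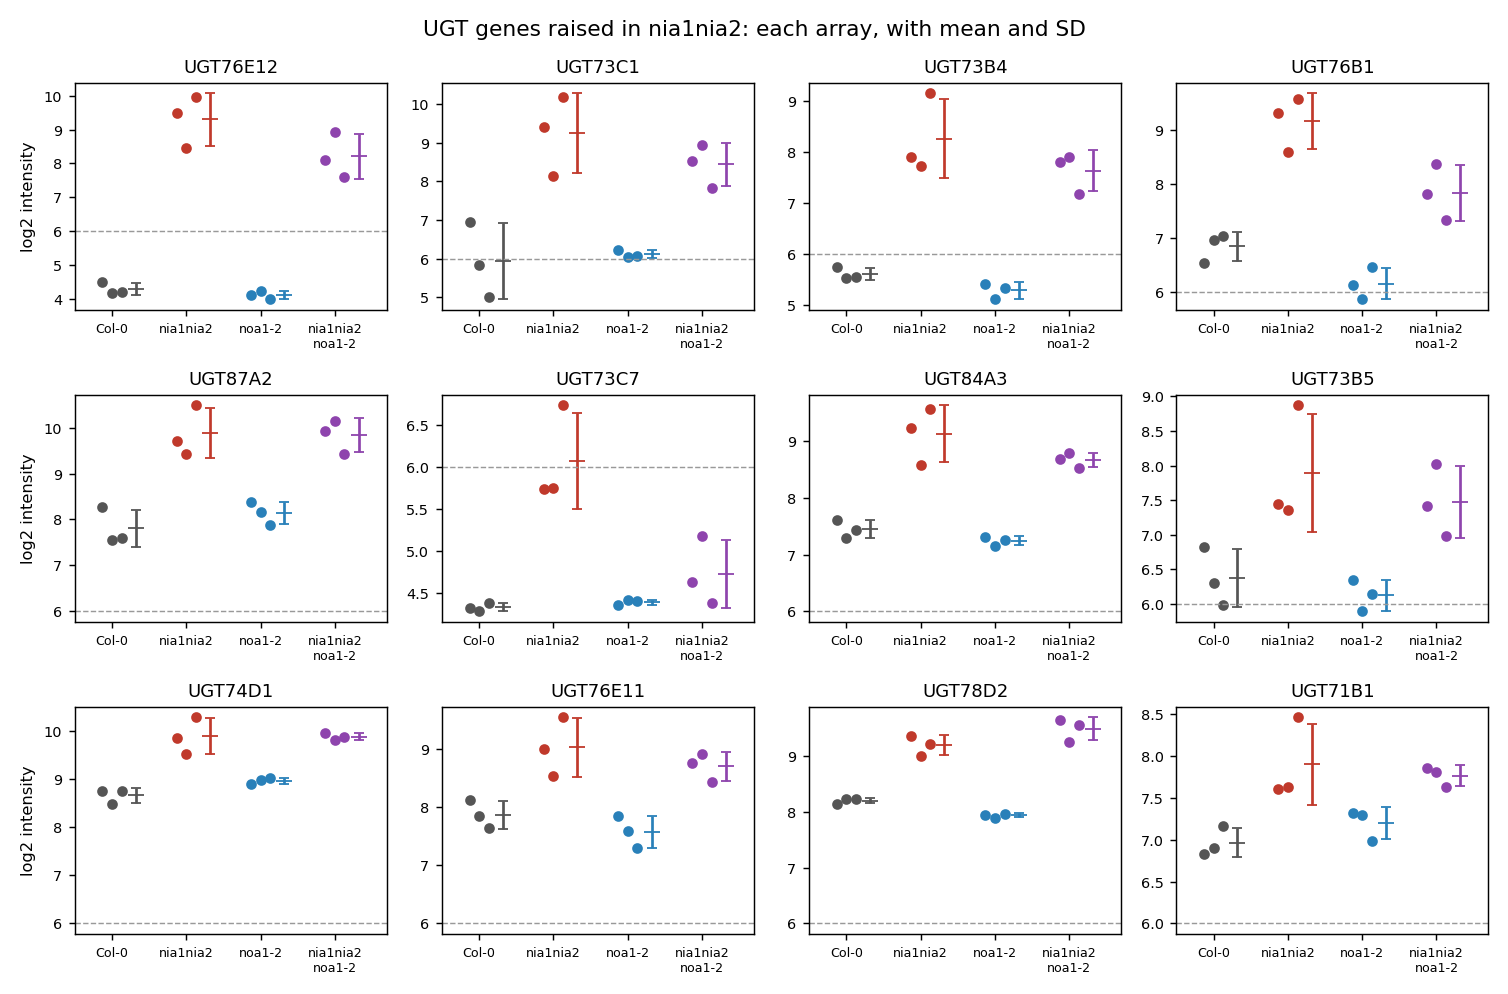
Log2 intensity on each array of the 12 UGT genes that rose in nia1nia2, by genotype, with the mean and SD of 3 arrays; the dashed line marks the floor of 6. The nia1nia2 points lie above all Col-0 points in every panel, and UGT73C7 alone falls back under the floor in nia1nia2noa1-2.

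UGTs that act on hormones and signals made up the second group. Of 21 listed, 12 were measured alone and 6 tested, of which 3 rose and 1 fell in nia1nia2, 3 rose in nia1nia2noa1-2 and none was called in noa1-2. Over all tested genes 16.4% rose and 26.6% fell in nia1nia2, and 10.6% rose in nia1nia2noa1-2. With 6 tested genes, these counts describe the genes and are no measure of the group. UGT76B1 glucosylates isoleucic acid, salicylic acid and N-hydroxypipecolic acid, small molecules of plant defence. Its log2 intensities were 6.54, 6.95 and 7.03 in Col-0, 9.31, 8.58 and 9.58 in nia1nia2, 6.12, 5.87 and 6.45 in noa1-2, and 7.81, 8.36 and 7.32 in nia1nia2noa1-2. The 4 genotypes did not overlap and ran from noa1-2 through Col-0 and nia1nia2noa1-2 to nia1nia2. UGT76B1 rose by 2.32 ± 0.28 in nia1nia2 (adjusted p = 4.13e-05) and by 0.99 in nia1nia2noa1-2 (adjusted p = 0.0229), the latter lost without Col-0 replicate 1 or nia1nia2noa1-2 replicate 1 or 2 (adjusted p = 0.0613 to 0.113). In noa1-2 the difference of -0.69 did not pass with the shared spread (adjusted p = 0.146).

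UGT87A2 is known for an effect on flowering time. It read 8.27, 7.56 and 7.6 in Col-0, 9.71, 9.43 and 10.48 in nia1nia2, 8.37, 8.17 and 7.88 in noa1-2, and 9.93, 10.14 and 9.42 in nia1nia2noa1-2. The rise was almost the same size in both mutants, 2.06 ± 0.27 (adjusted p = 8.18e-05) and 2.02 (adjusted p = 0.000244), and the triple mutant differed from nia1nia2 by only -0.04. UGT74D1, which glucosylates auxin and its oxidized form, had the same pattern at 8.76, 8.48 and 8.75 in Col-0, 9.86, 9.53 and 10.28 in nia1nia2, 8.89, 8.98 and 9.02 in noa1-2, and 9.96, 9.81 and 9.87 in nia1nia2noa1-2. Both nia1nia2 mutants stood clear of Col-0, and noa1-2 lay just above it on all 3 arrays. UGT74D1 rose by 1.23 ± 0.16 in nia1nia2 (adjusted p = 7.85e-05) and by 1.22 in nia1nia2noa1-2 (adjusted p = 0.000218), beside 0.30 in noa1-2 (adjusted p = 0.276).

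The cytokinin N-glucosyltransferases UGT76C1 and UGT76C2, which are adjacent genes, did not rise. UGT76C2 read 7.15, 7.16 and 6.8 in Col-0, 6.34, 6.39 and 6.61 in nia1nia2, 6.76, 6.71 and 6.83 in noa1-2, and 6.78, 6.76 and 6.4 in nia1nia2noa1-2. It fell by 0.59 in nia1nia2 (SE 0.14, adjusted p = 0.00427, or 0.025 with 6 arrays and 0.0391 with weights), all 3 arrays being under Col-0, and differed by -0.39 in nia1nia2noa1-2 (adjusted p = 0.0615). UGT76C1 showed log2 differences of 0.10 (95% interval -0.17 to 0.36), -0.07 (-0.34 to 0.19) and 0.02 (-0.25 to 0.28) in nia1nia2, noa1-2 and nia1nia2noa1-2. UGT71C5, which makes the glucose ester of abscisic acid, was not called either, with 0.24 (-0.10 to 0.58), 0.02 (-0.32 to 0.36) and 0.17 (-0.17 to 0.51).

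Among UGTs of phenolic metabolism, UGT84A3 and UGT78D2 rose in both nia1nia2 mutants. UGT84A3, which makes glucose esters of hydroxycinnamic acids, read 7.62, 7.3 and 7.44 in Col-0, 9.24, 8.59 and 9.57 in nia1nia2, 7.32, 7.16 and 7.26 in noa1-2, and 8.69, 8.79 and 8.53 in nia1nia2noa1-2. All arrays of the 2 nia1nia2 mutants were above all others, with rises of 1.68 ± 0.20 (adjusted p = 3.17e-05) and 1.22 (adjusted p = 0.000826). UGT78D2, which adds glucose to flavonols and anthocyanidins, read 8.15, 8.23 and 8.23 in Col-0, 9.36, 9.01 and 9.23 in nia1nia2, 7.95, 7.9 and 7.97 in noa1-2, and 9.65, 9.26 and 9.57 in nia1nia2noa1-2. Its arrays were tight in Col-0 and noa1-2 (SD 0.05 and 0.04) and spread more in nia1nia2 and nia1nia2noa1-2 (0.18 and 0.21). It was the one of the 11 genes raised in both mutants whose mean was higher in the triple mutant. It rose by 1.00 ± 0.13 (adjusted p = 5.87e-05) and by 1.29 (adjusted p = 2.06e-05). UGT78D1, which adds rhamnose to the same flavonols, read 8.5, 8.9 and 8.88 in Col-0 and 8.41, 8.26 and 8.31 in nia1nia2. That difference of -0.43 passed in the 12-array fit (adjusted p = 0.0269), but not with 6 arrays (0.069), with weights (0.154), with medians centred, with the replicate block, or without Col-0 replicate 2 or 3 or nia1nia2 replicate 3 (0.0575 to 0.102).

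Other genes of this pathway were few on the list of probe sets with a single gene. Of 23 flavonoid and anthocyanin genes, 2 were measured, DFR, the dihydroflavonol reductase, and AT5MAT, a malonyltransferase of anthocyanins. DFR rose by 3.21 in nia1nia2 and by 2.40 in nia1nia2noa1-2, and AT5MAT by 1.10 and 1.11, while neither was called in noa1-2. UF3GT, for which RefSeq gives UGT79B1 as a synonym and which adds xylose to anthocyanins, rose by 2.01 ± 0.31 in nia1nia2 (adjusted p = 0.000251) and by 1.97 in nia1nia2noa1-2 (adjusted p = 0.000744), beside -0.81 in noa1-2 (adjusted p = 0.13).

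UGT71B1 had the smallest rise that passed in both mutants. It read 6.83, 6.9 and 7.16 in Col-0, 7.61, 7.63 and 8.46 in nia1nia2, 7.32, 7.29 and 6.98 in noa1-2, and 7.86, 7.81 and 7.63 in nia1nia2noa1-2. Both nia1nia2 mutants cleared Col-0 while noa1-2 overlapped it. The rises were 0.94 ± 0.20 (adjusted p = 0.0023) and 0.80 (adjusted p = 0.0124), the latter lost without Col-0 replicate 1 (adjusted p = 0.0518).

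UGT73C7 was called in nia1nia2 and not in the triple mutant. Its log2 intensities were 4.32, 4.28 and 4.38 in Col-0, 5.73, 5.75 and 6.73 in nia1nia2, 4.35, 4.41 and 4.4 in noa1-2, and 4.63, 5.17 and 4.38 in nia1nia2noa1-2. Only 1 array, nia1nia2 replicate 4, was above the floor, and the nia1nia2 mean of 6.07 just reached it. The gene was therefore tested only through nia1nia2. The difference from Col-0 was 1.74 ± 0.24 in nia1nia2 (adjusted p = 0.000116) and 0.40 in nia1nia2noa1-2 (adjusted p = 0.26). The triple mutant was lower than nia1nia2 by 1.34 log2 units (adjusted p = 0.00454, or 0.0246 with weights and 0.0633 with 6 arrays). It was also the UGT gene called in the 12-array fit for a triple-mutant value that departed from the added-up changes of the other mutants, by -1.40 (adjusted p = 0.0391), where 3.47% of all genes did in either direction. This call was lost in 9 of the 19 settings that tested UGT73C7. The gene fell under the floor and was not tested at a floor of 7, with the floor on the mean of all arrays, or without nia1nia2 replicate 4.

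All 12 rises in nia1nia2 kept their call in the 6-array and weighted fits. Within nia1nia2, the arrays did not rise evenly: replicate 4 was the highest in 11 of the 12 genes and replicate 3 the lowest in 10, against 59.6% and 53.0% of the 1152 genes raised in this mutant. For 10 of the 11 genes raised in both mutants the mean was higher in nia1nia2 than in nia1nia2noa1-2, as it was for 68.4% of the 564 genes raised in both. The direct comparison called 3 genes, all lower in the triple mutant (UGT73C7, UGT76B1 and UGT76E12), where 5.19% of all genes were lower and 9.97% higher. UGT73C7 was tested only through its nia1nia2 mean, the high side of this comparison, and UGT76E12 only through nia1nia2 mutants, so this count is no measure of the group. With the floor on the mean of all 12 arrays, 2 of 26 UGT genes were lower, where 4.99% of all genes were. Of the 3 genes, UGT76B1 differed by -1.33 (adjusted p = 0.00891, or 0.0701 with 6 arrays and 0.0641 with weights). UGT76E12 differed by -1.09 (adjusted p = 0.0485), and passed in only 10 of 25 settings, failing with 6 arrays (0.185), with weights (0.157) and without any of 10 single arrays, the exceptions being nia1nia2 replicate 3 and nia1nia2noa1-2 replicate 2 (0.0612 to 0.184). With limma on the 6 arrays none of the 28 passed, but that fit called only 0.853% of all genes higher and 0.569% lower. The count of higher genes was 0 in the 12-array fit, with 3 at an unadjusted p under 0.05 (UGT74B1, UGT78D2 and UGT88A1).

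The UGT genes that fell did so by small amounts, all less than 2-fold. UGT80B1, a sterol glucosyltransferase needed for normal seed coats, read 7.73, 7.92 and 7.94 in Col-0, 7.43, 7.42 and 7.27 in nia1nia2, 7.66, 7.6 and 7.6 in noa1-2, and 7.49, 7.33 and 7.33 in nia1nia2noa1-2. Each mutant was wholly under Col-0. It fell by 0.49 in nia1nia2 (SE 0.11, adjusted p = 0.00248, or 0.0301 with 6 arrays and 0.0232 with weights) and by 0.48 in nia1nia2noa1-2 (adjusted p = 0.00644).

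UGT85A5 and UGT85A4 were the members of the UGT85 group that fell, and both lie close to the floor. UGT85A5 read 6.57, 6.63 and 6.58 in Col-0, 6.24, 5.88 and 6.07 in nia1nia2, 6.72, 6.35 and 6 in noa1-2, and 6.02, 5.89 and 5.83 in nia1nia2noa1-2. Neither nia1nia2 mutant overlapped Col-0, whereas noa1-2 spread across it. It fell by 0.68 in nia1nia2noa1-2 (SE 0.16, adjusted p = 0.00893), and its difference of -0.53 in nia1nia2 (adjusted p = 0.0167) was lost with weights (0.113) and without Col-0 replicate 2 or nia1nia2 replicate 3 (0.0506 and 0.0513). UGT85A4 read 6.06, 6 and 6 in Col-0, 5.47, 6.02 and 5.73 in nia1nia2, 6.06, 6.25 and 5.82 in noa1-2, and 5.6, 5.45 and 5.24 in nia1nia2noa1-2. Only the triple mutant lay wholly under Col-0, with a fall of 0.59 (SE 0.15, adjusted p = 0.0156) that was lost without Col-0 replicate 1 or nia1nia2noa1-2 replicate 2 or 3 (0.05005 to 0.0645).

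UGT71C4 passed in nia1nia2 with the shared spread but not with that of the arrays compared. It read 9.27, 9.24 and 9.21 in Col-0 and 8.7, 8.39 and 9.1 in nia1nia2, a difference of -0.51 (adjusted p = 0.0244, or 0.0718 with 6 arrays and 0.073 with weights). The call was also lost with medians centred, and without any 1 Col-0 replicate or nia1nia2 replicate 2 or 3 (0.0546 to 0.0878). Thus of the 5 falls in nia1nia2, limma on 6 arrays kept 3, where it called 17.6% of all genes lower, and the weighted fit kept 2, UGT76C2 and UGT80B1, where it called 18.3%.

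**Figure D3:**
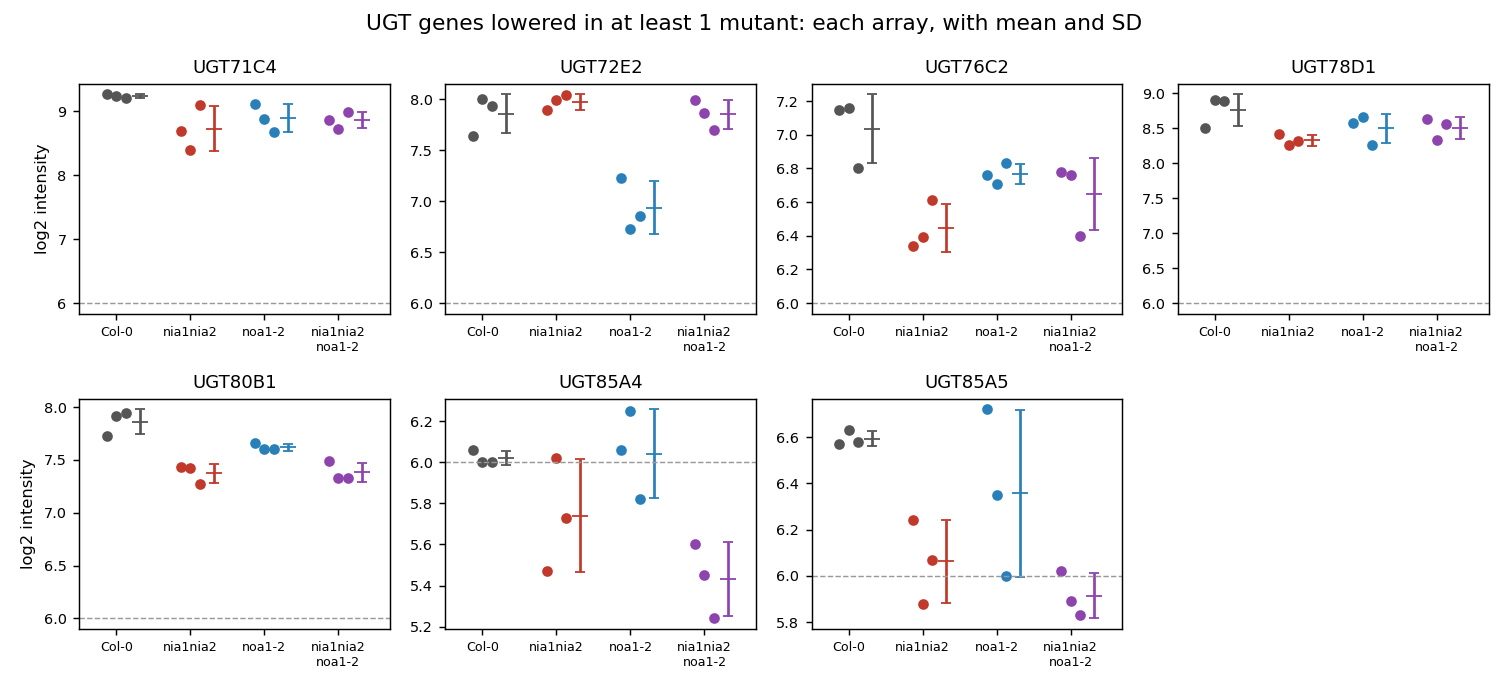
Log2 intensity on each array of the 7 UGT genes that were lower in at least 1 mutant, by genotype, with the mean and SD of 3 arrays. UGT72E2 drops only in noa1-2, whereas UGT80B1 and UGT85A5 are lower in both nia1nia2 mutants.

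The noa1-2 mutant had a different UGT gene as its single call. UGT72E2 glucosylates monolignols, the building blocks of lignin. Its log2 intensities were 7.64, 8 and 7.93 in Col-0, 7.89, 7.99 and 8.04 in nia1nia2, 7.23, 6.73 and 6.85 in noa1-2, and 7.99, 7.86 and 7.7 in nia1nia2noa1-2. The noa1-2 arrays were under all 9 others, and the triple mutant, which carries the same noa1-2 lesion, stayed within the Col-0 range. The fall was 0.92 (SE 0.15, adjusted p = 0.00219), a 1.89-fold difference. The triple mutant was 0.91 log2 units above noa1-2 (adjusted p = 0.000929), and nia1nia2 was 1.04 above it (adjusted p = 9.97e-05). The triple mutant departed from the added-up nia1nia2 and noa1-2 changes by 0.80, which did not pass (adjusted p = 0.0515) but did so in 6 of 22 settings, namely a floor of 7, a trend in eBayes, and leaving out Col-0 replicate 1, noa1-2 replicate 1 or nia1nia2 replicate 3 or 4 (lowest adjusted p = 0.0267). Its relative UGT72E1, another monolignol enzyme, was not called in noa1-2 (-0.15, 95% interval -0.52 to 0.21).

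In noa1-2 the log2 change was negative for 20 of the 28 genes, as it was for 54.5% of all tested genes, and all 3 noa1-2 arrays lay under all 3 Col-0 arrays for 9, where 21.2% of all tested genes did so. With limma on only the 6 Col-0 and noa1-2 arrays, which spread less than the 12 together, 5 UGT genes fell against a background of 11.5%, and with weights 6 did against 12.3%. Those that passed in both were UGT72E2, UGT76B1 (-0.69, adjusted p = 0.0122 and 0.0297), UGT84A4, the tandem neighbour of UGT84A3 (-0.58, 0.0055 and 0.00846), and UGT72B3 (-0.37, 0.0138 and 0.0265). UGT78D2 (-0.26) passed with 6 arrays alone, and UGT71C4 (-0.35) and UGT80B1 (-0.24) with weights alone. For higher genes, the count of 0 was also 0 at an unadjusted p under 0.05 in limma and 0 with 6 arrays, and it was 1 with weights (UGT74D1, 0.30, adjusted p = 0.0465). Of the 12 genes raised in nia1nia2, noa1-2 showed log2 changes between -0.69 and 0.33.

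Setting the triple mutant against noa1-2 compares mutated with functional nitrate reductase genes on a shared noa1-2 background. In this comparison 12 of the 28 UGT genes rose (42.9%) where 9.4% of all genes did, and 1 fell where 9.17% did. The genes that rose were 10 of the 11 raised in both nia1nia2 mutants, all but UGT71B1, together with UGT72E2 and UGT84A4. UGT71B1 differed by 0.57 and passed with 6 arrays (adjusted p = 0.0043) and with weights (0.00314), though not with the shared spread (0.0645). UGT76E12 rose by 4.10, UGT73B4 by 2.34, UGT73C1 by 2.32, UGT87A2 by 1.69, UGT76B1 by 1.68 and UGT78D2 by 1.55. UGT76E12 and UGT73B4 were under the floor in noa1-2 (means of 4.11 and 5.29) and in Col-0. They were tested only through the nia1nia2 mutants, which favours a high count, and the sizes of their rises are not exact. UGT84A4, not called against Col-0 in any mutant, was 0.80 above noa1-2 in the triple mutant (adjusted p = 0.0262), a call lost without noa1-2 replicate 2 or 3 or nia1nia2noa1-2 replicate 1 or 2 (0.0776 to 0.0999). The call for UGT73B5 (1.35, adjusted p = 0.02) was lost without the same 4 arrays (0.0559 to 0.101). UGT85A4 fell by 0.61 (adjusted p = 0.014), lost without noa1-2 replicate 1 or 2 or nia1nia2noa1-2 replicate 3 (0.0512 to 0.0737). Between nia1nia2 and noa1-2, 14 UGT genes were higher in nia1nia2 against a background of 17.2%, and 0 were lower against one of 25.8%, with 2 at an unadjusted p under 0.05 (UGT76C2 and UGT80B1) and 0 with 6 arrays or weights. UGT76E12, UGT73B4 and UGT73C7 were among the 14, and each was under the floor in noa1-2 and tested only through mutants that carry nia1nia2. No count was made over genes at or above the floor in noa1-2.

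By family number, UGT73 and UGT76 had the most tested genes. In UGT73, 5 of 7 members were tested, with a median log2 change of 1.74 in nia1nia2, 0.06 in noa1-2 and 1.10 in nia1nia2noa1-2. The counts of risers were 4, 0 and 3, where 16.4%, 5% and 10.6% of all tested genes rose in these mutants. In UGT76, 5 of 8 were tested, the medians were 1.16, -0.27 and 0.83, and 3 rose in each nia1nia2 mutant. Of these genes UGT73B4, UGT73C1, UGT73C7 and UGT76E12 lay under the floor in Col-0 and were tested only through mutants, which favours high counts and medians in both groups. UGT76 was mixed: the 2 UGT76E genes and UGT76B1 rose, while UGT76C2 fell in nia1nia2 and UGT76C1 was not called. In UGT85 the medians were -0.28, -0.13 and -0.59 over 3 of 5 members, of which 1 fell in nia1nia2, 0 in noa1-2 and 2 in nia1nia2noa1-2. Among all tested genes 26.6%, 4.08% and 11.3% fell in these mutants. UGT85A2 was not called and UGT85A3 lay under the floor. UGT72 had medians of 0.12, -0.37 and -0.01 over 3 genes and no call in either nia1nia2 mutant. The relative listed as GT72B1, outside these 3, was called higher in both and lower in noa1-2, as given further on. UGT72E1 was not called in any mutant, and UGT72B3, not called with the shared spread either, showed -0.44 (95% interval -0.85 to -0.02, adjusted p = 0.0832) in nia1nia2. UGT71 was represented by 3 of its 9 members: UGT71B1 rose, UGT71C4 was called lower in nia1nia2 with the shared spread, and UGT71C5 was not called. The remaining numbers had 1 or 2 tested genes each. UGT74B1, the S-glucosyltransferase of glucosinolate synthesis, was not called in any mutant (-0.13, -0.17 and 0.34), nor were UGT85A2 (0.23, -0.13 and 0.16) and UGT88A1 (-0.17, -0.17 and 0.19). These groups are too small and too uneven for a comparison between them, and none was tested.

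Tandem neighbours did not always move together. RefSeq gene order (TAIR10.1) places 6 pairs of tested UGT genes next to each other, 5 with no other protein-coding gene between them and UGT76E12 and UGT76E11 with 1. Both partners rose in 2 pairs, UGT73B4 with UGT73B5 and UGT76E12 with UGT76E11. In UGT84A3 and UGT84A4 the first rose in nia1nia2 by 1.68 and the second showed 0.15 (95% interval -0.34 to 0.64). In UGT85A5 and UGT85A2 the first was lower by 0.53 and the second showed 0.23 (-0.09 to 0.54). UGT76C2 and UGT76C1 (-0.59 and 0.10) and UGT71C4 and UGT71C5 (-0.51 and 0.24) were likewise called in 1 partner only, and the difference within a pair was not tested. As given above, the nia1nia2 call of UGT71C4 was lost with 6 arrays and with weights, and that of UGT85A5 with weights. Near copies can also bind each other's probes, which these values do not resolve.

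**Figure D4:**
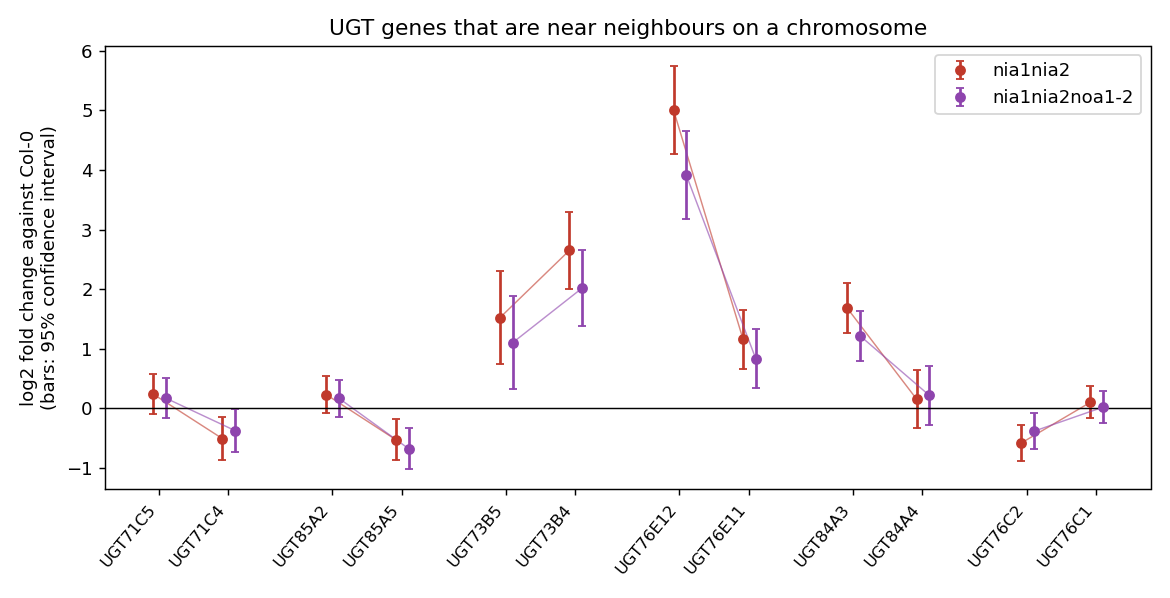
Log2 change against Col-0 in nia1nia2 and nia1nia2noa1-2, with 95% confidence intervals, for 6 pairs of UGT genes that lie next to each other in the genome. UGT76E12 and UGT76E11 rise by 5.00 and 1.16 in nia1nia2, whereas UGT84A3 rises by 1.68 in nia1nia2 beside 0.15 for UGT84A4.

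The 19 UGT genes under the floor had mean intensities between 3.81 and 5.65 over all arrays. UGT85A7 and UGT85A3 came closest to it, with highest genotype means of 5.69 and 5.64, and UGT85A4 (6.04) and UGT73C7 (6.07) were the nearest above. They include well-known enzymes such as UGT74F1 of salicylic acid metabolism and UGT84B1, which acts on auxin, so nothing is said of these here. When all 47 genes were kept, 15 were called higher in nia1nia2 against a background of 10.5%, adding UGT73C2 (0.54), UGT78D3 (0.39) and UGT85A3 (0.76), all 3 with signals under the floor.

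RefSeq names 64 genes as UGT by symbol or synonym, and 4 of those outside the 47 were measured alone under another symbol. UF3GT is described above. GT72B1, a synonym of UGT72B1, which conjugates chlorinated phenols, read 9.03, 8.87 and 8.86 in Col-0, 10.2, 9.8 and 10.11 in nia1nia2, 8.3, 8.4 and 8.53 in noa1-2, and 9.82, 9.6 and 9.66 in nia1nia2noa1-2. The noa1-2 arrays were lowest and Col-0 next, apart from each other and from the 2 nia1nia2 mutants, which overlapped. It rose by 1.12 in nia1nia2 (SE 0.13, adjusted p = 2.72e-05) and by 0.77 in nia1nia2noa1-2 (adjusted p = 0.000943), and fell by 0.51 in noa1-2 (adjusted p = 0.0245). SGT, a synonym of UGT80A2 and a sterol enzyme like UGT80B1, was not called (-0.14, -0.03 and -0.11), and AT5G54010 was under the floor. UGT89B1 shared its probe set with AT1G73885, with means of 8.41 in Col-0, 9.21 in nia1nia2, 8.67 in noa1-2 and 8.61 in nia1nia2noa1-2, and UGT71D1 shared one with AT2G29710, at 6.14, 5.81, 6.02 and 6.59.

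Glutathione S-transferases of the tau and phi classes, which attach glutathione to foreign and oxidized compounds and often respond together with UGTs, were called in both directions, as the UGT genes were. Of 12 measured alone, 7 were tested, and in nia1nia2 GSTU25 (1.67), GSTU16 (0.96) and GSTU22 (0.91) rose while GSTU18 (-1.12) and GSTU26 (-0.53) fell. Among all tested genes 16.4% rose and 26.6% fell in nia1nia2, and 10.6% rose and 11.3% fell in nia1nia2noa1-2. The median of the 7 genes was 0.16 in nia1nia2, -0.28 in noa1-2 and 0.25 in nia1nia2noa1-2, with 2 called higher and 2 lower in the triple mutant and none in noa1-2. On the side of substrate supply, 1 of 21 genes of UDP-sugar synthesis was measured alone, USP, a UDP-sugar pyrophosphorylase, which fell by 0.92 in nia1nia2 (adjusted p = 0.000137) and by 0.43 in nia1nia2noa1-2 (adjusted p = 0.0305).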

How the data were processed

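Expression in seedlings of 4 genotypes was measured on 12 Affymetrix ATH1 arrays, 3 per genotype, grouped by the sample titles. The authors background corrected, normalized and summarised the raw files by RMA in R (affy package, custom chip definition file), and the values they deposited are intensities on a linear scale, log2 of which has 2 decimals. Which definition file gave the deposited Affymetrix probe-set names is not known here. Log2 of the intensity was taken, no column was unused, and precision is limited by the number of arrays.

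The array annotation lists 13513 of the 22810 probe sets with 1 gene and 503 with several, and 64 are controls. The brightest probe set stood for each of 146 genes with more than 1. All 47 UGT symbols matched RefSeq (TAIR10.1), used only for names and gene order. The 7034 genes whose mean log2 reached 6 in any genotype entered 1 limma 3.58.1 fit (lmFit, eBayes; R 4.3.3; 8 residual degrees of freedom), with Benjamini-Hochberg adjustment over all of them and a threshold of 0.05. Mutants were compared with Col-0 and with each other, and the triple mutant with the added-up changes of nia1nia2 and noa1-2. Every adjusted p comes from limma unless named otherwise.

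Alternatives were no filter, the floor in either genotype compared, a floor of 7, the methods' t-test with and without adjustment, limma on the 6 arrays compared, weights per genotype, median centring, quantile normalization, a 2-fold minimum, the replicate block, a trend in eBayes, the mean of all probe sets and each array left out. A floor on the mean over all arrays was added after seeing the data. Replicates had equal values in 1.32% to 3.98% of probe sets, so no array was a copy. The fit was also run on simulated data with known changes, where a limit was set only on the mean error of the log2 change. No limit was set on the share of false calls, so this run says nothing here about calls in nia1nia2. Members, gene lists, markers and tests were chosen with earlier results of these data known. Named were all UGT genes called in any comparison, the brightest tested gene of each number, UGT72B3, and up to 3 called genes of each other list. UGT71C5, UGT76C1 and genes under the floor were named after their values were seen, as were GSTU18, GSTU26, UF3GT, GT72B1, SGT and AT5G54010. A list of 13 TGA and NAC regulators had no gene measured alone. Figures were drawn with matplotlib 3.10.9 and tables built with pandas 2.3.3 and numpy 2.4.6 in Python 3.11.15.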

Additional observations from a re-analysis of the deposited data

Results flagged for a closer look

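UGT73C7 was the 1 UGT gene of 28 (3.57%) whose nia1nia2noa1-2 change was called different from its nia1nia2 and noa1-2 changes added together. It was tested only because its nia1nia2 mean of 6.07 reached the floor, and the departure rests on that same mean. The departure, tested as an interaction in limma, was -1.40 log2 units (SE 0.34, adjusted p = 0.0391), and 3.47% of all tested genes departed in either direction. All 3 arrays of nia1nia2 were above all of the other genotypes, 2 of them under the floor of 6. The call failed in 9 of the 19 settings that tested the gene, namely with dim genes kept (adjusted p = 0.0547) and without any 1 Col-0 replicate, any 1 noa1-2 replicate, or nia1nia2noa1-2 replicate 1 or 3 (0.0785 to 0.108). It held with weights (0.0318). The gene was not tested at a floor of 7, with the floor on the mean of all arrays, or without nia1nia2 replicate 4.

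Signals from probe sets shared by several genes lay outside every comparison. The probe set of UGT73B2 and UGT73B3 was above all Col-0 arrays by 2.27 log2 units in nia1nia2 and 2.08 in nia1nia2noa1-2. That of UGT89B1 and AT1G73885 was above them by 0.80 in nia1nia2, 0.27 in noa1-2 and 0.20 in nia1nia2noa1-2. None of these differences was tested.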

How the results depend on the processing

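No called UGT gene changed direction in any setting run. Higher in nia1nia2 (12) became 7 with the methods' t-test after Benjamini-Hochberg adjustment, higher in nia1nia2noa1-2 (11) also 7, and nia1nia2 against noa1-2 (14) became 9. Lower in nia1nia2 (5) became 1 with that test, 3 with 6 arrays, 2 with weights, 3 with medians centred and 0 at 2-fold. Of all genes, 26.6% were lower there in the main fit, 17.6% with 6 arrays, 18.3% with weights and 20.5% with medians centred. Lower in noa1-2 (1) became 7 with the unadjusted t-test, 2 after adjustment, 5 with 6 arrays, 6 with weights, 2 with the replicate block and 0 at 2-fold. Of all genes, 4.08% were lower there in the main fit, 11.5% with 6 arrays and 12.3% with weights. Higher in noa1-2 (0) became 1 with the unadjusted t-test and 1 with weights, where 12.9% of all genes were higher with weights. Lower in nia1nia2noa1-2 (3) became 1 at a floor of 7, 5 with 6 arrays, weights or the block, and 0 at 2-fold. Of all genes, 11.3% were lower there in the main fit, 18.7% with 6 arrays and 19.9% with weights, so the 5 UGT genes (17.9%) did not exceed those shares. Shares of all genes were not counted for the t-tests, the block, the trend, a floor of 7 or arrays left out. The triple mutant against nia1nia2 (3) gave 0 with the adjusted t-test, 0 with 6 arrays and 1 with weights. With 6 arrays, only 0.853% of all genes were higher and 0.569% lower in that comparison. The departure count (1) was 0 without a filter, 0 with the floor on the mean of all arrays, and 2 with the block or a trend. The cause of these shifts was not tested. Replicate numbers were only shared: deviations of same-numbered arrays correlated between -0.112 and 0.282 over 15 pairs, 4 of them over 0.1, so the block pairs nothing known.

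Leaving out 1 array gave 11 to 13 genes higher and 2 to 6 lower in nia1nia2, 0 to 0 and 1 to 2 in noa1-2, 8 to 11 and 2 to 5 in nia1nia2noa1-2, 2 to 5 for the triple mutant against nia1nia2, 10 to 16 against noa1-2, 13 to 16 for nia1nia2 against noa1-2 and 0 to 4 for the departure. Lower genes in nia1nia2 were 2 without Col-0 replicate 2 and 3 without Col-0 replicate 3 or nia1nia2 replicate 3, lower genes in the triple mutant 5 without nia1nia2 replicate 4, and departures 3 and 4 without nia1nia2 replicates 3 and 4. Precision is limited by 3 arrays per genotype, and most for nia1nia2, whose arrays spread most.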
